A study of Mus musculus with 6 samples.

Results

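Inmt and 5 other genes for enzymes that put a methyl group on a small molecule (Nnmt, Tpmt, Hnmt, Gnmt and Gamt) were examined in luminal uterine epithelium of mice, the cell layer that lines the uterine cavity. Members were found by gene symbol, which gave 13 probes of the 45281 on the array, for 6 of 28869 genes. The set was built around Inmt, which was chosen by its lower signal in the knockout samples of these arrays. Its values are therefore a description and carry no test, whereas the other 5 genes were included for their function. Of the 13 probes, 7 passed the filter on dim probes (above background, a detection p-value under 0.05, on at least 3 of the 6 arrays), and they stood for 5 of the 6 genes. Hnmt had no probe that passed.

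RNA was measured on 6 Illumina bead arrays of 1 chip, each carrying 1 sample taken at 3.5 days post coitum (dpc). The labels call 3 samples Control (replicates A, B and C) and give no further genotype for them. The other 3 (replicates D, E and F, here CKO) were Alk3 flox/flox Pgr cre/+ females, in which loxP sites flank exon 2 of Alk3, a part of its extracellular domain. Alk3 is the protein of the Bmpr1a gene and one of the type I receptors through which bone morphogenetic proteins (BMPs) signal. Cre was made from the progesterone receptor locus and so can act in any cell that uses Pgr, not in epithelium alone. Both groups had a hybrid C57BL/6J and 129S5/SvEvBrd background, and the age of the animals is not given in the labels. Neither the way the epithelium was isolated nor separate animals for each array are stated, so the p-values reflect only how far these samples spread, which may be technical. Control samples sat at positions A to C of the chip and CKO samples at D to F, and position and group cannot be told apart.

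The enzymes of this set take a methyl group from S-adenosylmethionine (SAM) and pass it to a small acceptor, leaving S-adenosylhomocysteine. Each has its own acceptor: tryptamine and other amines for Inmt, nicotinamide for Nnmt, sulfur-containing purine drugs for Tpmt, histamine for Hnmt, glycine for Gnmt and guanidinoacetate for Gamt. In the uterus around implantation, polyamines (made in part from SAM) and histamine have long been studied. The luminal epithelium is the first maternal tissue that the embryo meets.

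Inmt, indolethylamine N-methyltransferase, is the member whose signal differed most between the groups, so the stretch before the start site of its gene is shown here for context. Where either Inmt probe lies in the transcript was not known here. The arrays measured RNA and say nothing of this stretch directly. RefSeq (GRCm38.p6) places it at chr6:55174991-55175240 on the minus strand. The 250 bases end just before the annotated start, are written 5′ to 3′, and have in capitals the letters TATAAA and CANNTG.

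Inmt: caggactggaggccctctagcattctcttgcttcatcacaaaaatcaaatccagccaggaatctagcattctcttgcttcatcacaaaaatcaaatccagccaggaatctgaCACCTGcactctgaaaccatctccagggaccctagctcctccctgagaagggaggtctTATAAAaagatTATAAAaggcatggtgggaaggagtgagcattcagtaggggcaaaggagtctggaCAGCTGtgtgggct

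TATAAA, the core letters of a TATA box, began 80 and 69 bases before the start. Of 32851 RefSeq promoter windows of the same length, 12.4% held TATAAA on either strand, and the windows of Tpmt, Hnmt, Gnmt and Gamt did not. CANNTG, the E-box letters, began 138 and 14 bases before the Inmt start and occurred in 66.2% of all windows. A stretch of 46 bases was present in 2 adjacent copies, which began 232 and 186 bases before the start. GGCGCC and GTCTAGAC, letters that SMAD proteins downstream of BMP receptors can bind, were each found 0 times in this window, against 9.59% and 0.167% of all windows. Both are absent from most windows, and shorter forms were not searched for. These counts therefore do not show that the window lacks letters that SMAD proteins can bind. All searches covered both strands, and such matches describe letters only. GC content was 48% for Inmt, against 38.8% for Hnmt, 60.4% for Gnmt, 66.8% for Gamt and 69.2% for Tpmt, and no window was matched for Nnmt.

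Inmt signal was lower on every CKO array than on every Control array, at both of its probes. The raw intensity of the brighter probe, in linear units with background still included, was 478, 348 and 425 on Control arrays A, B and C. On CKO arrays D, E and F it was 142, 103 and 124. The lowest Control array thus stood well above the highest CKO array, and each of these values was an average over 37 to 55 beads with a bead-to-bead standard error of 2.81% to 5.05%. The raw mean was 416.8 ± 65.2 (SD, n = 3) in Control and 122.8 ± 19.2 (SD, n = 3) in CKO, a ratio of 0.295 with background in both. The probe was above background on all 6 arrays, but only by a small margin on CKO array E, where its detection p-value was 0.0139, while that on array F was 0.00107.

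After background correction and quantile normalisation, on the log2 scale used from here on, the brighter Inmt probe gave 8.57, 8.03 and 8.54 on the Control arrays. It gave 6.56, 5.38 and 6.13 on CKO arrays D, E and F. The groups did not overlap, and a gap of 1.47 separated the lowest Control array, B, from the highest CKO array, D. Means were 8.38 ± 0.31 (SD, n = 3) in Control and 6.02 ± 0.60 (SD, n = 3) in CKO, a difference of -2.36 with an SE of 0.33, or 5.14-fold lower on this scale. An offset of 16 added before the log makes folds of dim probes smaller than they are. The authors' deposited table of processed intensities gave 365, 245 and 357 for Control and 78.3, 25.7 and 54.1 for CKO, in the same order of arrays. Fewer cells of a type that contains Inmt RNA and less Inmt RNA per cell cannot be told apart in such bulk samples.

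**Figure D1:**
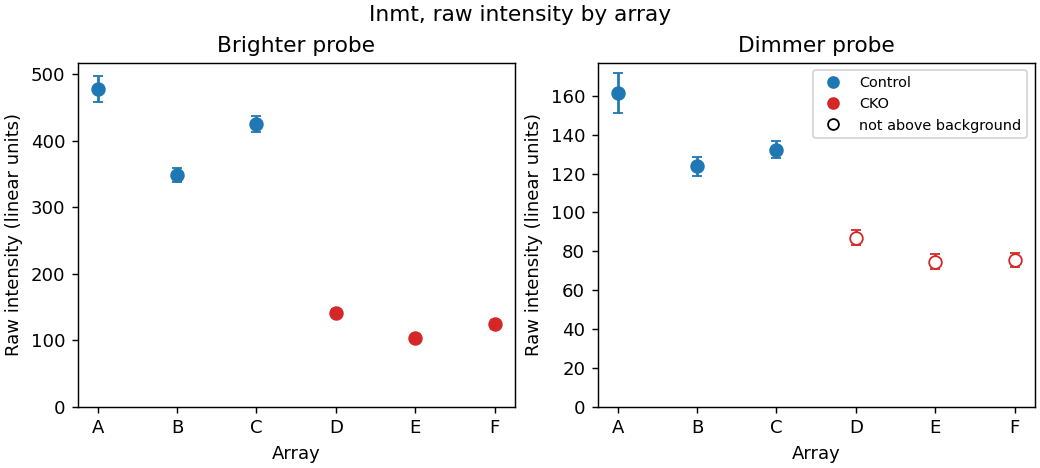
Raw intensity (y axis, linear units, from 0) of the brighter (left) and dimmer (right) Inmt probe on each array (x axis), Control in blue and CKO in red. Bars are the bead standard error as deposited, which for some points is smaller than the marker, and open circles are values not above background: the brighter probe lies between 348 and 478 in Control and between 103 and 142 in CKO.

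The dimmer Inmt probe gave 6.51, 5.81 and 6.22 on the Control arrays and was above background on all 3. It gave 4.96, 4.52 and 4.57 on the CKO arrays and was above background on 0 of 3. Every CKO value was under every Control value, but this probe passed the filter only through the Control arrays and belongs to the gene that was chosen, so it is no independent support. CKO has only a bound for it, and its signal there was at least 2.19-fold lower than in Control. That bound sets the Control mean against, on each CKO array, the higher of the probe's own value and the lowest signal above background. Across the 6 arrays the probes had a Pearson r of 0.978, a description that carries the group difference within it.

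Among all 11939 genes tested, 0 had a lower difference than Inmt, which follows from how the gene was chosen. Groups that did not overlap, with CKO lower, were found for 597 genes, or 5% of those tested, and for 1 of the 5 tested members, Inmt itself. Groups that did not overlap with CKO higher were found for 673 genes, or 5.64%, and for 0 of the 5. By limma's adjusted p under 0.05, 2 genes of the 11939, or 0.0168%, passed, both higher in CKO, and 563 had an unadjusted p under 0.05. None of the 4 other tested members was among the 2.

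**Figure D2:**
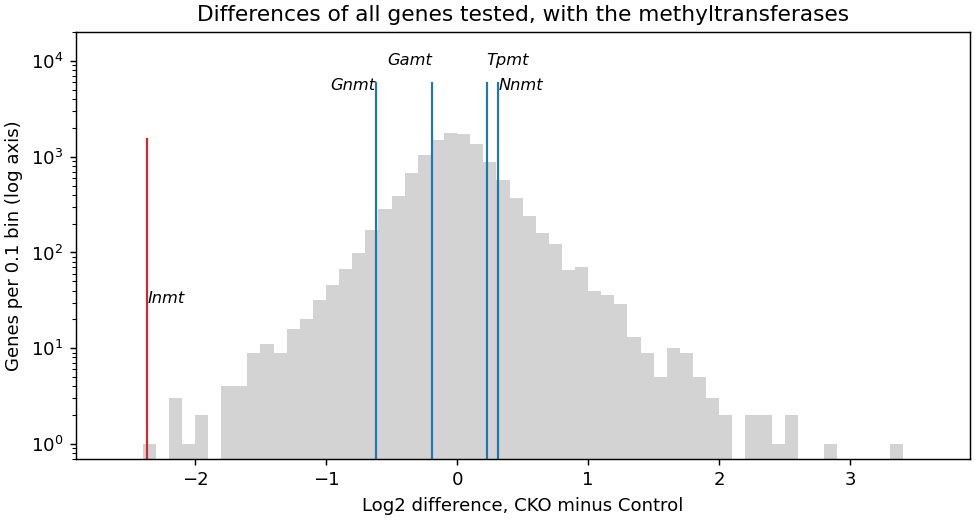
Histogram of the log2 difference, CKO minus Control (x axis), of the 11939 genes tested, with the number of genes per bin on a log y axis. The red line marks Inmt at -2.36, at the low end of all differences and chosen for that, and the blue lines mark Gnmt at -0.62, Gamt at -0.19, Tpmt at 0.22 and Nnmt at 0.32. Gamt, Tpmt and Nnmt lie within the bulk of the genes, and Gnmt lies just outside it, in the low tail under -0.56.

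Nnmt, which methylates nicotinamide and so takes it out of NAD recycling, had 1 of its 3 probes above background. That probe gave 5.57, 5.36 and 5.25 in Control and 6.15, 5.56 and 5.42 in CKO. CKO array D was the highest, and the other CKO arrays lay among the Control values, so the groups overlapped. Means were 5.39 ± 0.16 (SD, n = 3) in Control and 5.71 ± 0.38 (SD, n = 3) in CKO. The difference of 0.32 (SE 0.24, 95% confidence interval -0.25 to 0.88) did not pass, with an adjusted p of 0.977 by limma. Without CKO replicate D it was 0.098. The other 2 Nnmt probes were not above background on any array.

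Tpmt, the thiopurine S-methyltransferase that inactivates drugs such as mercaptopurine, had the tightest Control values of the tested members. Its brightest probe gave 7.06, 7.15 and 7.17 in Control and 7.48, 7.10 and 7.48 in CKO. CKO arrays D and F lay above all Control arrays, while array E lay among them. Means were 7.13 ± 0.056 (SD, n = 3) in Control and 7.35 ± 0.22 (SD, n = 3) in CKO. The difference of 0.22 (SE 0.17, 95% confidence interval -0.19 to 0.64) did not pass by limma's adjusted p, 0.977, and was 0.35 without CKO replicate E. A second probe, also above background on all 6 arrays, gave 6.32, 6.17 and 6.16 in Control and 6.32, 5.85 and 6.53 in CKO, a difference of 0.019. Array E was again the lowest CKO array, and r between these probes was 0.655 over 6 arrays. The third probe was not above background on any array.

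Gnmt, the enzyme that methylates glycine to sarcosine and buffers the SAM pool in liver, varied more within Control than between the groups. Its brightest probe gave 5.14, 5.97 and 7.16 in Control and 5.10, 5.86 and 5.45 in CKO. Control replicate C stood above all other arrays, and Control replicate A lay next to the lowest CKO array, so the groups overlapped. Means were 6.09 ± 1.01 (SD, n = 3) in Control and 5.47 ± 0.38 (SD, n = 3) in CKO, a difference of -0.62 (SE 0.51, 95% confidence interval -1.83 to 0.59). It did not pass by limma's adjusted p, 0.977, and the difference was -0.086 without Control replicate C and -1.09 without Control replicate A. The second probe was above background only on that same array, at 5.41, and gave 4.97 and 4.66 on Control arrays A and B and 4.58, 4.62 and 4.57 in CKO. The third was not above background on any array.

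Gamt, which makes creatine from guanidinoacetate, had 1 probe. It gave 6.23, 6.76 and 6.70 in Control and 6.46, 5.86 and 6.80 in CKO. The lowest and the highest of the 6 values were both CKO arrays, E and F, so the groups overlapped throughout. Means were 6.57 ± 0.29 (SD, n = 3) in Control and 6.37 ± 0.48 (SD, n = 3) in CKO. The difference of -0.19 (SE 0.29, 95% confidence interval -0.88 to 0.50) did not pass by limma's adjusted p, 0.977, and was 0.067 without CKO replicate E.

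Hnmt, which inactivates histamine inside cells, had 1 probe that was not above background on any array. Its raw intensity was 89.5, 89.6 and 77.2 in Control and 71.7, 79.4 and 70 in CKO. The normalised log2 values were 4.81, 4.75 and 4.55 in Control and 4.46, 4.62 and 4.45 in CKO. All of them lay under the lowest signal above background, which ran from 5.02 to 5.13 over the arrays, so Hnmt has only an upper bound in both groups and was not tested.

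**Figure D3:**
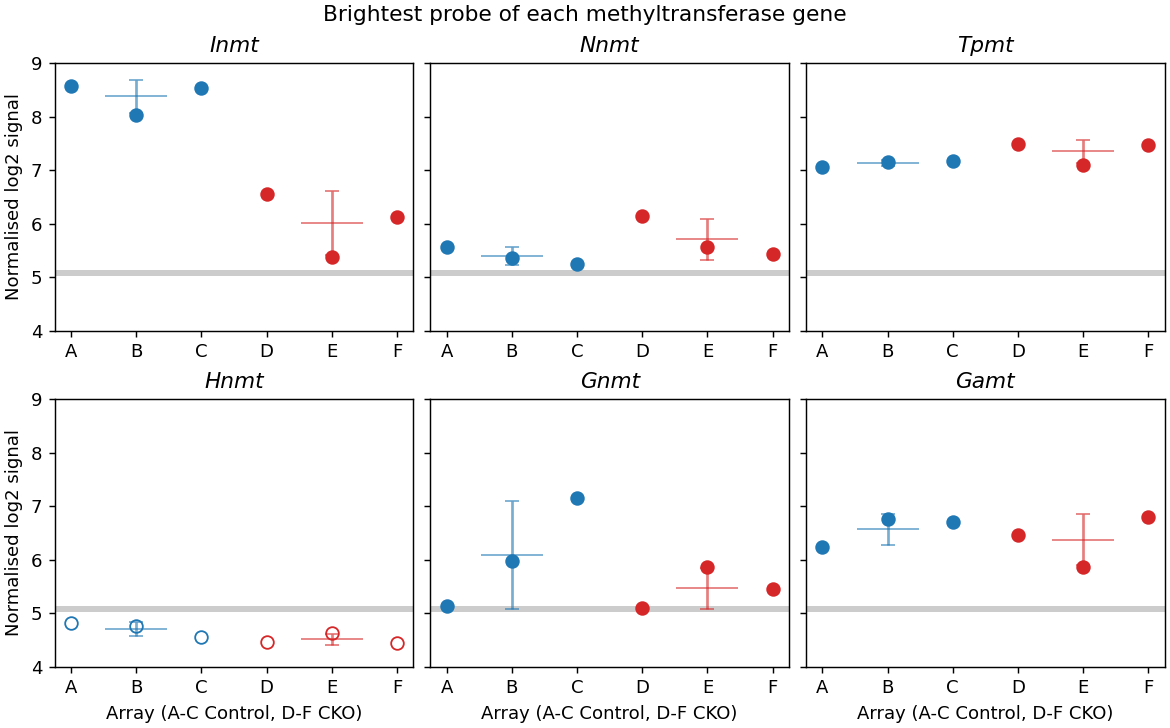
Normalised log2 signal (y axis) of the brightest probe of each member on each array (x axis), with group means as horizontal lines and SD as bars, Control (A to C) in blue and CKO (D to F) in red. Open circles are not above background and the grey band is the lowest signal above background on the arrays, 5.02 to 5.13: Inmt has groups that do not overlap, the other tested members have groups that do, and Hnmt lies under the band on all 6 arrays.

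Of the 13 member probes, 6 were above background on all 6 arrays, 5 on 0 arrays, 1 on 1 array and 1, the dimmer Inmt probe, on the 3 Control arrays only. Of the 5 tested members 3 were lower and 2 higher in CKO, with a median difference of -0.19, or 0.017 over the 4 without Inmt. Over all 11939 genes the median was -0.011 and 51.7% were lower. The lowest 5% of differences lay under -0.56 and the highest 5% above 0.60, a range that holds Nnmt, Tpmt and Gamt, with Gnmt just outside it.

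The genes whose log2 values followed Inmt most closely over the 6 arrays were Mettl9, with r = 0.995, Mrgprg and Slc5a6, both with r = 0.990, Cript, with r = 0.988, and 2210016L21Rik, with r = 0.987. All 5 share with Inmt the difference between the groups, but with smaller sizes. Mettl9, a protein histidine methyltransferase, differed by -0.22, Mrgprg by -0.27, Cript by -0.32, 2210016L21Rik by -0.46 and Slc5a6, a vitamin transporter, by -0.56. The closest to Nnmt were Khdc4 (r = 0.997) and Tchp (r = 0.991), both highest on CKO array D. Tarbp2 (r = 0.987) and Ankrd46 (r = 0.982) were closest to Tpmt, both with arrays D and F above the rest. An array entry with no gene symbol (r = 0.978) was close to Gnmt and likewise highest on Control array C. Trim65 (r = 0.996) and Elmo1 (r = 0.992) were closest to Gamt, both lowest on CKO array E. With 6 arrays and 11939 genes to pick from, such values describe shared profiles on these arrays only.

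Genes around the members were taken from 8 lists: other small-molecule methyltransferases, the methyl donor cycle, and the routes of the 6 acceptors. Of 98 genes listed, 53 were tested, of which 28 were higher and 25 lower in CKO. By limma's adjusted p 0 of the 53 passed, the smallest being 0.977, against 0.0168% of all genes. With so low a share over all genes, a count of 0 is no result about these lists or any list below. At an unadjusted p under 0.05 by limma there were 2 of the 53, against 563 of all 11939 genes. Groups did not overlap for 2 lower genes and 1 higher gene, against the 5% and 5.64% over all genes.

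Of 14 other small-molecule methyltransferases, 8 were tested, 3 higher and 5 lower, with a median of -0.16. Coq3, which methylates ubiquinone precursors, gave 5.48, 5.79 and 5.28 in Control and 5.10, 5.21 and 5.09 in CKO. Its groups did not overlap, but the difference was small, -0.38 (SE 0.19), and the values lay close to background. Without Control replicate B the Coq3 difference was -0.24. Carnmt1, which methylates carnosine, was above background on all 3 Control arrays but on only 1 CKO array. It gave 5.34, 5.29 and 5.67 in Control and 4.91 to 5.29 in CKO, so the groups overlapped and the fitted difference of -0.37 (SE 0.19) rests partly on values that are only bounds. The differences of all 8 ran from -0.38 to 0.25, against -2.36 for Inmt, which was chosen for its difference.

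The methyl donor cycle, which makes SAM and clears S-adenosylhomocysteine, had 17 of 24 genes tested, 9 higher and 8 lower, with a median of 0.033. Ahcyl2, a relative of the S-adenosylhomocysteine hydrolase, gave 8.54, 8.73 and 7.91 in Control and 9.06, 9.35 and 8.83 in CKO. Every CKO array was above every Control array, a difference of 0.69 (SE 0.27), or 0.44 without Control replicate C. Cth, which makes cysteine from cystathionine, gave 6.16, 6.11 and 6.55 in Control and 5.15, 4.98 and 6.11 in CKO. CKO array F reached the lowest Control value while D and E lay well under it, E not above background, and the difference was -0.86 (SE 0.33). Neither gene passed, with an adjusted p of 0.977 by limma for each.

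**Figure D4:**
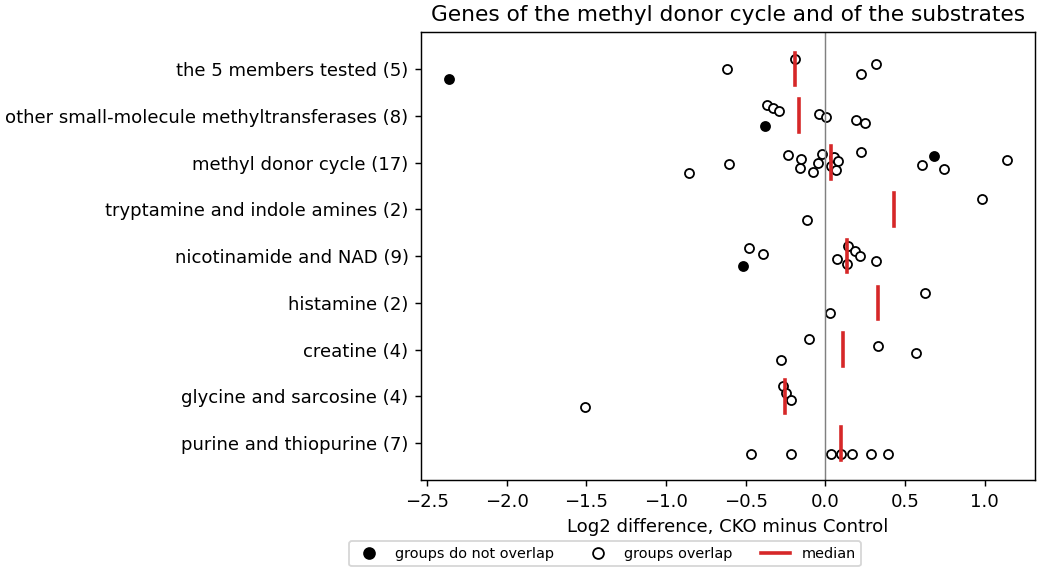
Log2 difference, CKO minus Control (x axis), of each tested gene of the 8 lists and of the 5 tested members (y axis, with the number of genes), with red lines at the medians. Filled circles have groups that do not overlap: Inmt at -2.36, Coq3 at -0.38, Ahcyl2 at 0.69 and Sirt3 at -0.52. Of the 53 list genes 0 passed the test, against 0.0168% of all genes.

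For the amines that Inmt methylates, 2 of 10 genes were tested. Ddc, the decarboxylase that makes tryptamine, Tph1 and Maoa were on the array but did not pass the filter. Ido1, which breaks down tryptophan, gave 7.88, 7.74 and 6.54 in Control and 8.64, 7.82 and 8.66 in CKO, a difference of 0.99 (SE 0.42) with groups that overlapped, or 0.56 without Control replicate C. Maob, an amine oxidase, was high on 1 array of each group, at 8.40 on Control array A and 8.19 on CKO array E, and lay between 5.24 and 5.63 on the rest. Its difference was -0.12 (SE 1.05), or 0.84 without Control replicate A and -1.04 without CKO replicate E.

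Around Nnmt, 9 of 19 nicotinamide and NAD genes were tested, 6 higher and 3 lower, with a median of 0.13. Sirt3, a mitochondrial deacylase that uses NAD, gave 9.09, 8.98 and 8.79 in Control and 8.76, 8.43 and 8.10 in CKO. The groups did not overlap, though Control array C and CKO array D were nearly equal, and the difference was -0.52 (SE 0.22). Sirt2 differed by -0.48 (SE 0.25) with groups that overlapped, or by -0.29 without CKO replicate E.

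Around Hnmt, 2 of 8 histamine genes were tested, both higher in CKO by amounts that did not pass. Hdc, which makes histamine from histidine, gave 14.57, 14.63 and 14.62 in Control and 14.71, 14.68 and 14.52 in CKO. All 6 arrays lay within a narrow band near the top of the scale, and the difference was 0.032 (SE 0.15). Aoc1, the diamine oxidase that breaks down histamine outside cells, differed by 0.63 (SE 0.40), which was 1.09 without Control replicate B and 0.29 without Control replicate C. The histamine receptors Hrh1, Hrh2, Hrh3 and Hrh4 did not pass the filter. Of 7 mast cell markers, another cell type that contains Hdc, all were on the array and 0 passed the filter.

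Around Gamt, 4 of 6 creatine genes were tested, 2 higher and 2 lower, with a median of 0.11. Gatm, which makes guanidinoacetate, did not pass the filter. The creatine kinase Ckb, near the top of the scale at 14.07 to 14.85, differed by -0.28 (SE 0.23), or -0.047 without CKO replicate E. The creatine transporter Slc6a8 differed by 0.33 (SE 0.38), or -0.036 without Control replicate C and 0.63 without Control replicate B. Around Gnmt, 4 of 8 glycine and sarcosine genes were tested, and all 4 were lower in CKO, with a median of -0.26 and 0 passing. Gldc, of the glycine cleavage system, gave 10.60, 11.32 and 12.17 in Control and 11.15, 7.70 and 10.70 in CKO. Array E alone was far lower than the rest, and without it the difference of -1.51 (SE 0.93) became -0.43. Glyat, which joins glycine to acyl groups, was above background on 2 Control arrays and 1 CKO array. Its fitted difference was -0.25 (SE 0.21), or -0.12 without Control replicate A and -0.38 without CKO replicate E. Around Tpmt, 7 of 9 purine and thiopurine genes were tested, 5 higher and 2 lower, with a median of 0.096. Impdh2, of guanine nucleotide synthesis, differed by 0.39 (SE 0.25) and the nucleotidase Nt5c2 by -0.47 (SE 0.30), and without CKO replicate E these were 0.17 and -0.14.

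The arrays had a raw median of 79.7 to 87.6 and 16620 to 17536 probes above background, and array E, a CKO sample, correlated least with the others on average, at 0.936 against 0.953 to 0.970. Without array E, Inmt differed by -2.06. Bmpr1a was lower on every CKO array, with 9.19 ± 0.20 (SD, n = 3) in Control and 8.60 ± 0.31 (SD, n = 3) in CKO, a difference of -0.60 (SE 0.22) that did not pass by limma's adjusted p, 0.977. Whether its probe lies in the deleted exon is not known here. Pgr differed by -0.43 (SE 0.56) with groups that overlapped. Of 10 pan-epithelial markers, 9 passed the filter, among them Krt8, a keratin, at 13.0 to 13.5, and Epcam did not. In CKO 3 of the 9 were higher and 6 lower, with differences from -0.92 to 0.10 and 0 passing by limma's adjusted p. The lowest difference was that of Krt19, another keratin, at 10.48, 11.30 and 11.78 in Control and 11.13, 8.77 and 10.91 on CKO arrays D, E and F. Of 12 stroma markers, 7 passed the filter, and Pdgfra, Pdgfrb, Hand2, Hoxa10 and Hoxa11 did not. The 7 were Vim, Col1a1, Col1a2, Col3a1, Thy1, Dcn and Lum. Of them 5 were higher and 2 lower in CKO, with a median difference of 0.51 and 0 passing by limma's adjusted p. Dcn was the brightest, at 9.50 to 12.36. The summed linear level of the 7 was 2080 to 2767 in Control and 996 to 6180 in CKO, highest on array D and lowest on array F. That sum is set mostly by Dcn, which was far brighter than the rest on every array. The mean deviation of the 7 from each gene's average over the arrays was -0.35 to -0.11 in Control and 1.03, 0.57 and -0.85 on CKO arrays D, E and F, so D and E lay above every Control array and F under every one. The part of stroma content in the Inmt difference was not tested. For 11 marker lists with a tested gene, stroma among them, this mean deviation overlapped between the groups in all 11.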

How the data were processed

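The scanner tables, as deposited and per the file headers, hold the mean bead intensity (linear, not background-subtracted), its standard error, the bead number and a detection p-value for 45281 probes on each of 6 arrays. A second table from the authors holds processed intensities, whose median was 6.4 on every array. For both, the software was not given in the sources used here. Here the neqc function of limma 3.58.1 (R 4.3.3) corrected the raw intensities by normexp, with the negative controls estimated through the detection p-values, added an offset of 16, quantile-normalised the arrays and took log2. The filter kept 17291 probes, the brightest of which stood for its gene. Probes were named by RefSeq accession (29370) or symbol (6962) through a GRCm38.p6 gene table, 8931 kept the file's name and 18 were left out. CKO was compared with Control by lmFit and eBayes in a two-sided test, and p-values were adjusted by Benjamini-Hochberg over all 11939 genes. The fit was tested on simulated normalised values, and the normalisation on raw values multiplied by a known factor. The filter, the naming of probes and the choice of the brightest probe were not tested in this way. Precision is limited by the number of arrays.

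The members, lists, motifs and alternatives were chosen with earlier results of these data known. Genes were named by a rule: all members, the up to 2 smallest p-values of each list, the 5 genes closest to Inmt and the 2 closest to each other tested member, Bmpr1a and Pgr. The plan was to name up to 2 genes of every marker list. In a departure from it, marker genes were named for the pan-epithelium and stroma lists only, with those on the array but below the filter beside them. The other marker lists, luminal epithelium among them, enter only by counts or by their mean deviation. A gene that this rule names for Gnmt is not reported here.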

Additional observations from a re-analysis of the deposited data

How the results depend on the processing

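Inmt, chosen for its lower signal in CKO, was lower under all 17 alternatives, from -2.63 to -1.63, which is no independent support. Its value could not change with no filter, the strict filter, every probe tested, or variance trend and robust fitting. It moved most with other background settings, to -1.71 with normexp without controls and an offset of 50 in place of 16, changed together, and to -1.63 with no correction, where background left in both groups shrinks a ratio. Leaving out each array gave -2.63 to -2.06. Its difference was the lowest of all genes in 7 of the 16 alternatives in which it was tested, and the strict filter (detection p-value below 0.01 on every array) left it out. Members that passed the test numbered 0 under all 17. Nnmt, Tpmt and Gnmt kept their sign under all 17, which include settings that cannot change it, and the strict filter left out Nnmt and Gnmt. Hnmt was not above background on any array and was tested only with no filter, so its sign cannot be read. Gamt ran from -0.40 to 0.067 when arrays were left out. Genes called over the whole array, 2 in the report, numbered 1 with that normexp setting, no correction, median scaling, cyclic loess or the deposited values, 0 with no filter or the strict filter, 5 with array weights and 0 to 1 when arrays were left out. Of 16 named list genes 13 kept their sign. Hdc became -0.065 with array weights and ran from -0.0052 to 0.094 when arrays were left out, Maob from -1.04 to 0.84 and Slc6a8 from -0.036 to 0.63. The cause of these changes was not tested. Signals near background limit Nnmt, Gnmt and Hnmt. No paired analysis was run, because the labels name no pairs of Control and CKO samples.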

Other observations

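Control array A and CKO array E shared a profile that crosses the groups. On both, 101 genes were over 2-fold higher than on each of the other arrays and 41 were over 2-fold lower, a pattern chosen after its values were seen. Maob, at 8.40 on A and 8.19 on E against 5.24 to 5.63 elsewhere, was one of the higher genes, and Inmt, at 8.57 and 5.38, was not.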
